A study of Danio rerio with 6 samples.

Results

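The genes described here encode structural proteins of the myelin sheath, the wrapping of compacted glial membrane around axons. They were taken by name from a list of 10 symbols, and 8 of the 32520 genes in the files are described here (*mbpa*, *mbpb*, *mpz*, *plp1b*, *cldnk*, *cldn19*, *mag* and *cnp*). The symbol *mog* was not matched, and this gene was not analysed here. All 8 genes passed the filter on low counts, which kept 22558 genes.

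Polyadenylated RNA was sequenced from telencephalic hemispheres of adult zebrafish, with 3 uninjured libraries (control, healthy and without treatment) and 3 injured libraries. One hemisphere was pierced with a syringe needle, the opposite hemisphere served as control, and RNA was taken at 5 dpl (days post lesion). The authors state that hemispheres were processed separately, and each library title names a single hemisphere. Strain, age and sex are not given in the sources used here. The titles number the libraries 1 to 3 within each condition, and libraries of the same number deviated together (details are given with the methods), so that values are also compared within a number.

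Myelin is made in the central nervous system by oligodendrocytes and in peripheral nerves by Schwann cells. Myelin basic protein holds the cytoplasmic faces of the membrane together, while in fish myelin protein zero helps to hold the outer faces together. Claudins seal the layers with tight junctions, Mag sits on the glial membrane facing the axon, and Cnp, as known from mouse, keeps cytoplasmic channels in the sheath open.

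The libraries held 59675791 to 91663196 reads on genes. CPM are read counts scaled to a common library size, here with the TMM factors of edgeR. They are not divided by gene length, so that levels are compared mainly between libraries. Where values of different genes stand side by side, they also depend on gene length. Log2 fold changes compare injured with control libraries and are positive where expression was higher after injury, and SE is their standard error. The adjusted *p*-value (adjp) is that of edgeR's quasi-likelihood test with Benjamini-Hochberg adjustment over the 22558 genes, and a gene is called with an adjp below 0.05. Of 13 listed genes of the telencephalon, the 3 matched were the transcription factor genes *emx1*, *emx2* and *emx3*, expressed in the dorsal telencephalon. They summed to between 75.7 and 97.5 CPM in a library. The 4 matched of 11 listed genes of other brain regions summed to between 1.22 and 1.91 CPM. Pineal and photoreceptor transcripts set injured replicates 1 and 3 apart. The 12 matched genes of that list summed to 200 and 468 CPM in these libraries, 6.43 CPM in injured replicate 2 and 6.53 to 7.87 CPM in control hemispheres. Results without these 2 libraries are given where a call depends on them.

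Transcripts of 6 of the 8 myelin genes rose after injury, and none fell. These were *mbpb*, *mpz*, *plp1b*, *cldnk*, *cldn19* and *cnp*. Over all genes tested, 11.6% were called higher and 4.82% lower. The median log2 fold change of the 8 genes was 0.87, compared with a median of 0.00 (-0.0038) over all genes tested. For the same 6 genes the lowest injured value exceeded the highest control value, a pattern found in 20.3% of all genes, with the opposite pattern in 15.5%. The remaining genes, *mbpa* and *mag*, were not called, though *mbpa* was with replicate number as a block. The other calls given here are from fits that do not use the replicate numbers. Of the 8 genes, 4 were called with a log2 fold change of at least 0.9, as were 4.72% of all genes, and 6 had an unadjusted *p*-value below 0.05 in edgeR, as had 30.5% in either direction. DESeq2 also called 6 genes higher, beside 13.5% of all genes higher and 8.55% lower. The count was 3 without control replicate 3 and 3 without injured replicates 1 and 3, where 6.17% and 6.22% of all genes were called higher. In RNA of whole hemispheres, more cells expressing these genes and more RNA per cell cannot be told apart. Which cell types expressed the 8 genes was not tested.

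**Figure D1:**
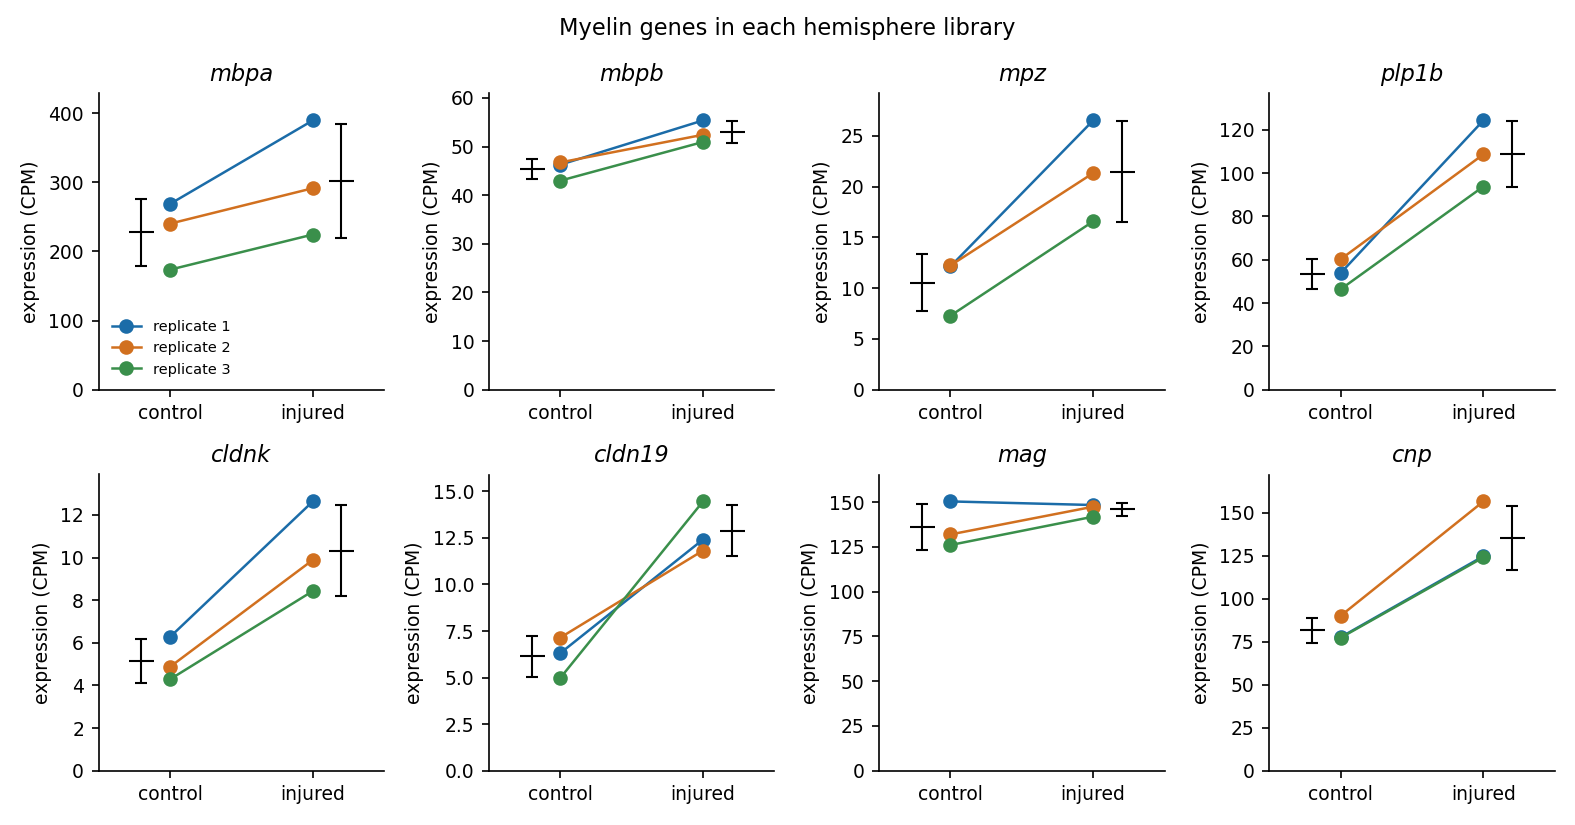
Expression (CPM, linear axis from 0) of the 8 myelin genes in the 3 control and 3 injured libraries. Lines join libraries of the same replicate number, and bars beside the points give the mean ± SD (n = 3). For 7 genes all 3 lines rise, and for *mag* the line of replicate 1 falls slightly from 150 to 148 CPM.

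*plp1b* (ENSDARG00000011929) encodes a tetraspan membrane protein of the compact sheath. Its expression was 53.8, 60.2 and 46.3 CPM in control replicates 1, 2 and 3, and 124, 109 and 93.8 CPM in injured replicates 1, 2 and 3. The lowest injured library thus stood well above the highest control library. Mean expression of *plp1b* rose from 53.5 ± 6.94 CPM to 109 ± 15.3 CPM (SD, n = 3 each, log2 fold change 1.03, SE 0.12, adjp = 0.00323). Whichever single library was left out, *plp1b* stayed called, at 0.92 to 1.12 on the log2 scale, and without injured replicates 1 and 3 its adjp was 0.0134.

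*mpz* (ENSDARG00000038609) encodes myelin protein zero, an adhesion protein of the immunoglobulin family, which in mammals is largely a protein of peripheral myelin. Control replicates 1 to 3 had 12.1, 12.2 and 7.28 CPM, and injured replicates 1 to 3 had 26.5, 21.3 and 16.6 CPM. Both conditions had their lowest value in replicate 3, and the conditions did not overlap. *mpz* was called with a change of 1.03 on the log2 scale (SE 0.24, adjp = 0.0268). The call depended on single libraries, while the log2 fold change stayed at 0.82 to 1.18 with any 1 library left out. Leaving out control replicate 1 or 3 gave an adjp of 0.0587 or 0.0544, and leaving out injured replicate 1 or 2 gave 0.0662 or 0.0661. Without injured replicates 1 and 3 together, the log2 fold change was 1.03 and the adjp 0.0806. In edgeR with replicate number as a block, the adjusted *p*-value was 2.43e-04. In the RefSeq annotation of another assembly (GRCz12tu), non-coding genes overlap *mpz* and *cldn19*. Since the strand setting is not known, some reads of both may belong to these, or may have been left out as ambiguous.

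Of the claudins, *cldnk* (ENSDARG00000042357) is a marker of myelinating glia in zebrafish, and *cldn19* (ENSDARG00000044569) is known in mouse from the tight junctions of Schwann cells. *cldnk* had 6.27, 4.87 and 4.29 CPM in the control replicates 1 to 3, while the injured replicates had 12.6, 9.89 and 8.43 CPM. Replicate 1 was highest and replicate 3 lowest in both conditions, and the conditions did not overlap. *cldnk* rose by 1.01 on the log2 scale (SE 0.19, adjp = 0.0131). Leaving out control replicate 3 gave an adjp of 0.0507, and leaving out injured replicates 1 and 3 one of 0.0534. *cldn19* had 6.31, 7.14 and 4.98 CPM in the control replicates, while the injured replicates had 12.4, 11.8 and 14.5 CPM. It was the only one of the 8 genes whose highest injured value was in replicate 3, a library with pineal transcripts. *cldn19* rose by 1.07 on the log2 scale (SE 0.14, adjp = 0.00449) and was also called whichever single library was left out. Leaving out injured replicates 1 and 3 together gave 0.95 (adjp = 0.0439).

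*cnp* (ENSDARG00000070822) encodes a cyclic nucleotide phosphodiesterase, known in mouse from the non-compact parts of the sheath. Whether its transcripts here came from myelinating cells was not tested. Control replicates 1 to 3 had 77.6, 90.0 and 77.2 CPM of *cnp*, and injured replicates 1 to 3 had 125, 157 and 124 CPM. All injured libraries were above all control libraries, and replicate 2 was highest in both conditions. *cnp* rose by 0.73 on the log2 scale (SE 0.11, adjp = 0.00566). Whichever library was left out, *cnp* was called, at 0.60 to 0.80.

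Of the genes for myelin basic protein, *mbpb* was called higher and *mbpa* was not called. *mbpb* (ENSDARG00000089413) had 46.3, 46.7 and 43.0 CPM in control replicates 1 to 3, against 55.4, 52.4 and 51.0 CPM in injured replicates 1 to 3. These values were tight within each condition and did not overlap between them. Mean expression was 1.17-fold higher after injury (log2 fold change 0.22, SE 0.055, adjp = 0.0325). The call of *mbpb* was lost with any 1 library left out, at an adjp between 0.0528 and 0.107, where its log2 fold change was 0.18 to 0.25, and without injured replicates 1 and 3 its adjp was 0.165. With replicate number as a block, the adjusted *p*-value of *mbpb* in edgeR was 0.00318.

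*mbpa* (ENSDARG00000036186) gave 33.3% to 43.6% of the reads of the 8 genes in a library, a share that also depends on transcript length. Control replicates 1 to 3 had 269, 240 and 174 CPM of *mbpa*, and injured replicates 1 to 3 had 389.5, 291 and 224 CPM. Injured replicate 3 therefore lay below control replicates 1 and 2, and the conditions overlapped. Its log2 fold change of 0.41 (SE 0.22, 95% interval -0.11 to 0.93) did not pass the test (adjp = 0.264). Within each replicate number the injured library was higher, by 0.54, 0.28 and 0.37 on the log2 scale. In edgeR with replicate number as a block, *mbpa* was called, with a log2 fold change of 0.40 (SE 0.048) and an adjusted *p*-value of 0.00130.

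*mag* (ENSDARG00000104023) encodes myelin-associated glycoprotein, a sialic acid binding adhesion protein. Expression of *mag* was 150, 132 and 126 CPM in control replicates 1 to 3, against 148, 147 and 142 CPM in injured replicates 1 to 3. Control replicate 1 was the highest of the 6 libraries, and the conditions overlapped. Its log2 fold change was 0.10 (SE 0.067, 95% interval -0.06 to 0.26, adjp = 0.373). Its adjusted *p*-value was 0.0981 with replicate number as a block, and it was called in no fit, with an adjp between 0.0813 and 1 over all alternatives. The upper bounds of the intervals for *mag* and *mbpb*, 0.26 and 0.35, lay below the lower bounds for *mpz*, *plp1b*, *cldnk*, *cldn19* and *cnp*, which were 0.48 to 0.73.

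**Figure D2:**
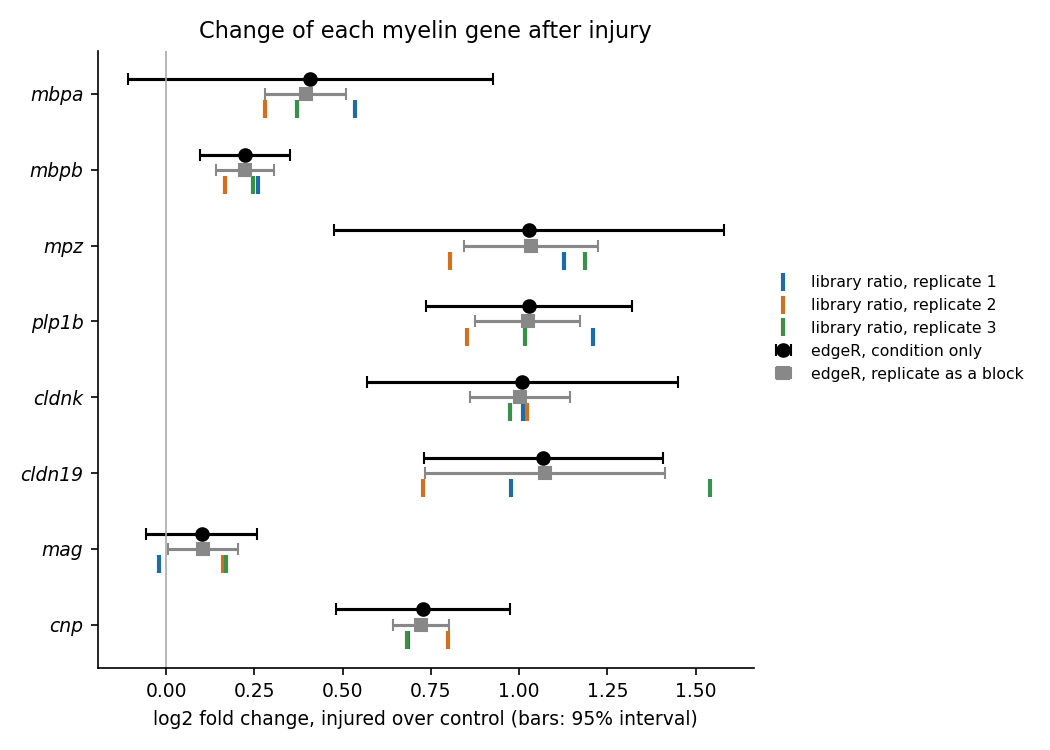
Log2 fold change of each myelin gene, injured over control. Black circles are the edgeR estimates with condition only and grey squares those with replicate number as a block, each with its 95% interval, and coloured ticks are the ratios of the injured to the control library of each replicate number. The interval of *mbpa* reaches from -0.11 to 0.93 without the block and from 0.28 to 0.51 with it, and *mpz*, *plp1b*, *cldnk* and *cldn19* lie near 1.

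The libraries were also compared within a replicate number. For 7 of the 8 genes the injured library was above the control library of its number in all 3 pairs, which held for 31.5% of all genes tested. With replicate number as a block, 7 genes were called higher, all but *mag*, beside 19.9% of all genes higher and 16.2% lower. The replicate numbers also differed in the level of these transcripts. All 8 genes had their lowest control value in replicate 3, and 7 their lowest injured value there, where 35.1% and 32.8% of all genes had theirs. Both held for 7 of the 8 genes and for 18.6% of all genes. The CPM of the 8 genes summed to 621, 593 and 483 in control and 894, 800 and 675 in injured replicates 1, 2 and 3. The lowest injured sum was thus only slightly above the highest control sum, although within a number the sums stood clearly apart.

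The balance between paralogous genes was compared in each library as the log2 ratio of their CPM, in 2 pairs of genes. For *mbpa* over *mbpb*, the mean ratio was 2.30 in control and 2.48 in injured libraries, a difference of 0.17 (exact two-sided permutation test, p = 0.5, adjusted over the 2 pairs 0.8). For *cldnk* over *cldn19*, it was -0.26 and -0.34, a difference of -0.08 (exact permutation test, p = 0.8, adjusted 0.8). Neither difference passed this test, which does not pair the libraries and with 3 against 3 cannot give a *p*-value below 0.1. Within replicate numbers 1, 2 and 3, the *mbpa* to *mbpb* ratio was higher in the injured library by 0.28, 0.11 and 0.13, while the *cldnk* to *cldn19* ratio differed by 0.03, 0.29 and -0.56. The *mbpa* to *mbpb* ratio was highest in replicate 1 of both conditions, at 2.54 and 2.81.

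Other components of the sheath were more often called higher than lower. Of 27 listed genes, 19 were matched and tested, and 8 were called higher and 1 lower, against 11.6% and 4.82% of all genes. The largest increase was that of *anln*, from 2.82 ± 0.152 to 7.67 ± 1.39 CPM (SD, n = 3 each), with a change of 1.44 on the log2 scale (SE 0.15, adjp = 0.00183). Anillin scaffolds septins in mouse myelin and also acts in cell division, so that its transcript is not particular to myelin. *cd59*, a complement inhibitor found on myelinating glia of zebrafish, rose with a change of 1.15 on the log2 scale (SE 0.16, adjp = 0.00461). *cldn11a*, whose mammalian counterpart forms the tight junctions of central myelin, rose from 20.9 ± 1.14 to 39.9 ± 5.21 CPM (SD, n = 3 each). *pmp22a*, for a peripheral myelin protein, had only 49 to 196 reads in a library. It rose from 0.924 ± 0.189 to 1.87 ± 0.209 CPM (SD, n = 3 each, log2 fold change 1.01, adjp = 0.0155). The call was lost on leaving out control replicate 1 (0.0605), control replicate 3 (0.0606) or injured replicate 2 (0.0508). Without injured replicates 1 and 3, the log2 fold change of *pmp22a* was 1.18. The gene called lower was *gpm6ba*, for a membrane glycoprotein also expressed by neurons, with a log2 fold change of -0.27 (adjp = 0.0122), a call lost on leaving out control replicate 1 (0.0502) or injured replicates 1 and 3 (0.0816). The paralogue of *gpm6ba*, *gpm6bb*, was called higher, with a log2 fold change of 0.29 (adjp = 0.0123). The median log2 fold change of the 19 genes was 0.19. Without injured replicates 1 and 3, 4 genes of this list were called higher and none lower, where 6.22% and 1.25% of all genes were.

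Of the listed enzymes of myelin lipids, 7 of 16 were matched and tested. Of these, 4 were called higher and none lower, against 11.6% and 4.82% of all genes. *ugt8*, the galactosyltransferase of galactolipid synthesis, rose from 1.87 ± 0.296 to 4.20 ± 0.366 CPM (SD, n = 3 each), with a change of 1.17 on the log2 scale (SE 0.15, adjp = 0.00411). *fa2h*, which hydroxylates the fatty acids of these lipids, rose by 0.99 on the log2 scale (SE 0.19, adjp = 0.0147), a call lost without injured replicates 1 and 3 (0.0695). *elovl1b*, an elongase of very long chain fatty acids, rose by 0.93 (SE 0.075, adjp = 9.73e-04). *cers2b*, a ceramide synthase, was called with a log2 fold change of 0.35 (adjp = 0.0158), a call lost on leaving out control replicate 1 (0.0501), control replicate 3 (0.0513) or injured replicate 1 (0.0503), and without injured replicates 1 and 3 (0.0846). With all libraries, the 7 enzymes had a median change of 0.35 on the log2 scale. Leaving out injured replicates 1 and 3, which keeps a single injured library, gave a median of 0.38. In both fits 5 of the 7 enzymes had a positive change and 2 a negative one.

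Among genes of the oligodendrocyte lineage, 12 of 16 were matched and 10 tested. Of the 10, 5 were called higher and none lower, against 11.6% and 4.82% of all genes. *myrf*, the transcription factor that in mouse switches on myelin genes in oligodendrocytes, had 10.2 ± 1.42 CPM in control and 22.8 ± 3.12 CPM in injured libraries (SD, n = 3 each, log2 fold change 1.16, SE 0.13, adjp = 0.00273). *sox10*, a transcription factor of the whole lineage, rose by 0.57 on the log2 scale (SE 0.064, adjp = 0.00250). *erbb3b*, for a neuregulin receptor, was called with a log2 fold change of 0.87 (adjp = 0.0223), lost on leaving out control replicate 2 (0.0687), control replicate 3 (0.0768), injured replicate 2 (0.0708), injured replicate 3 (0.0522) or injured replicates 1 and 3 (0.0716). *tcf7l2*, for a transcription factor of the Wnt pathway, was called with 0.56 (adjp = 0.0226), lost on leaving out control replicate 2 (0.0705), control replicate 3 (0.0840) or injured replicates 1 and 3 (0.118). The genes *olig2* and *pdgfra*, used as markers of precursors, had log2 fold changes of 0.16 (adjp = 0.238) and 0.42 (adjp = 0.0508). *ptprz1b*, of the same list, was called higher, a call kept with any 1 library left out. With replicate number as a block, 9 of the 10 genes were called higher and *olig1* lower, beside 19.9% of all genes higher and 16.2% lower. The count of genes called higher was 3 without control replicate 3, beside 6.17% of all genes.

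**Figure D3:**
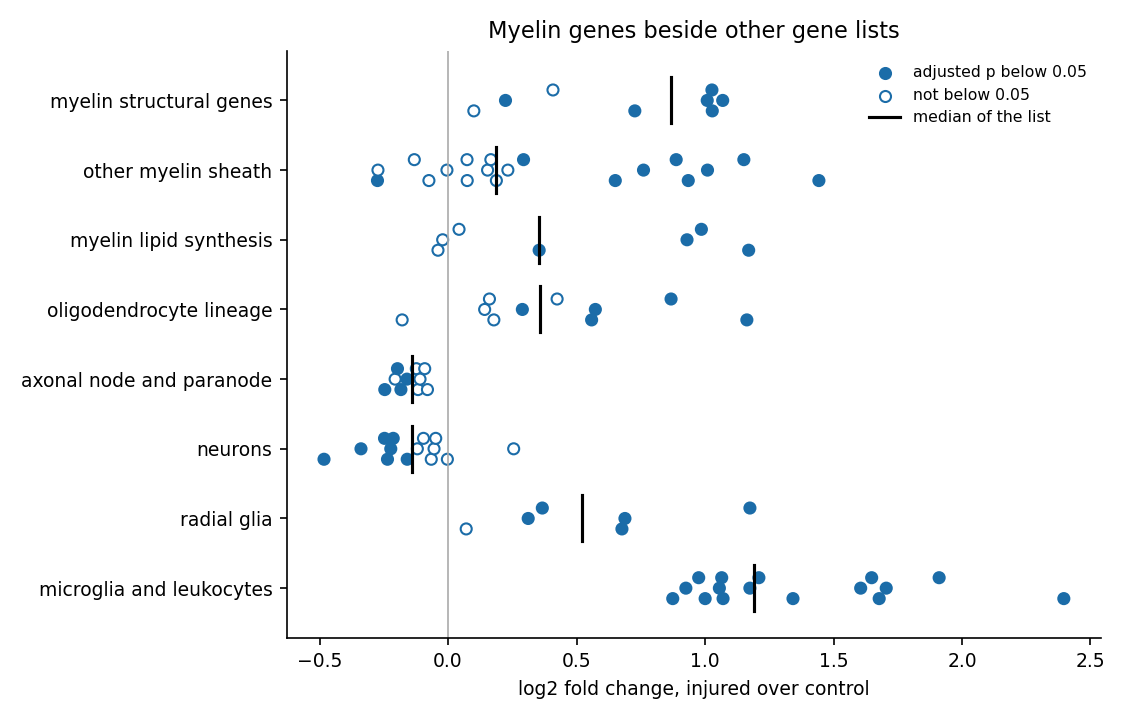
Log2 fold change of every tested gene of 8 lists, injured over control. Filled points have an adjp below 0.05, open points do not, and black lines are the medians. The median was 0.87 for the myelin structural genes, 0.19 for other genes of the sheath, -0.14 for axonal genes of the node and paranode, and 1.19 for microglia and leukocytes.

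On the axonal side, where the sheath borders the node of Ranvier, 10 of 20 listed genes were matched and tested. All 10 had a negative log2 fold change, from -0.25 to -0.08, as had 11448 of all 22558 genes tested. Without injured replicates 1 and 3, 9 of the 10 genes were negative. Of the 10 genes, 4 were called lower, namely *ank3a*, *sptbn4a*, *kcna1a* and *scn1lab*, beside 4.82% of all genes. With scaling by library size alone edgeR called none of the 10 genes lower, beside 2.08% of all genes. In that fit 5 had an unadjusted *p*-value below 0.05. The DESeq2 Wald test called 5 lower, beside 8.55% of all genes. On leaving out control replicate 1, control replicate 2 or injured replicate 3, edgeR also called none, with 5 at an unadjusted *p*-value below 0.05 each time. Of all genes, 1.33%, 2.17% and 1.99% were called lower in these settings. The count was 1 without control replicate 3 and 2 without injured replicate 2, beside 1.74% and 2% of all genes. With replicate number as a block 8 were called lower, beside 16.2% of all genes. *kcna1a*, for a potassium channel of the juxtaparanode, had 53.1 ± 0.786 CPM in control and 46.4 ± 0.658 CPM in injured libraries (SD, n = 3 each, log2 fold change -0.20, adjp = 0.0189). Without injured replicates 1 and 3, the adjp was 0.207 for *kcna1a*, 0.220 for *ank3a*, 0.0662 for *sptbn4a* and 0.0436 for *scn1lab*. Of 14 neuronal genes tested, 7 were called lower, beside 4.82% of all genes. The median log2 fold change over the 14 was -0.14, and -0.12 without injured replicates 1 and 3.

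Markers of other cells moved at the same time. Of all genes, 11.6% were called higher and 4.82% lower. The share called higher was 6.47%, 8.2% and 6.17% without control replicate 1, 2 and 3, and 7.69% without injured replicate 2. All 16 tested genes of microglia and leukocytes were called higher, and their list summed to 689 to 746 CPM in control and 2196 to 2647 CPM in injured hemispheres. Of 6 radial glia genes 5 were called higher, and 3 without control replicate 1 or 3. Of 9 endothelial genes 6 were called higher, 2 without control replicate 1 or 2, and 3 without control replicate 3 or injured replicate 2. Their median log2 fold change was 0.77, and 0.63 without injured replicates 1 and 3. Of 6 fibroblast genes 5 were called higher. Of 7 skin genes 1 was called higher, and none without control replicate 1 or 3, where 2 and 1 had an unadjusted *p*-value below 0.05 in edgeR. None of 3 erythrocyte genes was called by edgeR or DESeq2, with 0 at an unadjusted *p*-value below 0.05. The Schwann cell and peripheral nerve list had 3 of 7 tested genes called higher, *tfap2a*, *ngfra* and *foxd3*, the last with 1, 0 and 4 reads in control and 29, 23 and 32 in injured libraries. These genes are also expressed by other cells, and 1 gene of the list was called higher without control replicate 1, likewise without injured replicates 1 and 3 (adjp = 0.0200 for *tfap2a*, 0.125 for *ngfra* and 0.0974 for *foxd3*). *prx*, for periaxin of Schwann cells, had 9.38, 6.40 and 9.86 CPM in control replicates 1 to 3, against 9.71, 9.51 and 9.05 CPM in injured replicates 1 to 3 (log2 fold change 0.14, adjp = 0.607). The part of these cell types in the results for the myelin genes was not tested.

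The genes most similar to the 8 myelin genes over the 6 libraries were ranked among 17976 genes with a mean of at least 1 CPM, by Pearson's correlation with the mean centred profile of the 8 genes. The first 5 were *PLD2* (r = 0.998), a phospholipase D, *ATF3* (r = 0.997), a stress-responsive transcription factor, *tgm2l* (r = 0.997), of the transglutaminase family, and the lipid enzymes *FA2H* (r = 0.996) and *CERS2* (r = 0.996), the latter the ceramide synthase gene given above as *cers2b*. The profile itself rises with injury and follows the replicate numbers, so that these values are a description over 6 points in 2 conditions. The myelin genes are themselves part of this profile, so that their own correlations are not comparable with those of other genes. Among the myelin genes, the correlation with the same profile was 0.996 for *mbpb* and lowest for *mbpa* and *mag*, at 0.819 and 0.733. *tgm2l* had 3.51, 3.35 and 2.33 CPM in control replicates 1 to 3, against 9.59, 8.29 and 6.65 CPM in injured replicates 1 to 3.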

How the data were processed

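Reads of 6 libraries were mapped by the authors to GRCz11 with STAR and assigned to genes with HTSeq (union mode), and the deposited values are raw counts. Versions, strand setting and annotation release are not given in the sources used here. Entries for reads on no gene or on more than 1 gene, 28.8% to 31.2% of a library, were left out. In the RefSeq annotation of another assembly (GRCz12tu), *mpz* overlaps 1 and *cldn19* 2 non-coding genes, so that without a known strand setting their reads could not be separated. How reads were divided between paralogous copies was not tested.

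Counts were analysed with edgeR 4.0.16 in R 4.3.3 (filterByExpr, TMM, glmQLFit, glmQLFTest, condition as the only term) and with DESeq2 1.42.0 as an alternative. The other alternatives were further normalizations and filters, replicate number as a block, Bonferroni adjustment and each library left out. The fits with a library left out also had condition as the only term, so that they did not use the replicate numbers. Intervals are 95% intervals from the quasi-likelihood fit. The steps were also run on simulated counts with known changes. These counts held no effect of the replicate number, so that the use of replicate numbers was not tested. Names came from a table of Ensembl gene names matched without regard to case and, where that gave no single gene, from the gene lists of the study. The myelin genes and the other lists were chosen with earlier results of these data known. From each list, at most 4 genes called in each direction with the largest change were to be named. *emx1*, *emx2*, *emx3*, *gpm6bb*, *pdgfra*, *ptprz1b*, *olig1*, *olig2* and *prx* were named after their values were seen. The setting without injured replicates 1 and 3 was likewise added later. The deviations of libraries from the mean of their condition correlated over genes, between control and injured libraries, at 0.519, 0.396 and 0.321 for equal numbers and at -0.361 to -0.0832 for unequal ones, so the numbers were taken to pair the samples. Genes are not independent replicates. The authors describe the 3 libraries of each condition as biological replicates, but nothing in the labels says that they came from separate fish. The *p*-values measure only the spread between these libraries. No sequence is shown, and 1 gene of the list is not reported here.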

Additional observations from a re-analysis of the deposited data

How the results depend on the processing

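All 8 myelin genes kept their direction under every alternative fitted. The number called higher was 6 with RLE or upper-quartile normalization, with library size alone and with DESeq2. It was also 6 without the filter and with genes above a mean normalized count of 100 only. In these settings 8.66% to 14.1% of all genes were called higher. With replicate number as a block the number was 7, beside 19.9% of all genes. With 1 library left out it lay between 3, without control replicate 3, and 5, beside 6.17% to 9.24% of all genes. It was 3 without injured replicates 1 and 3, a setting chosen after seeing the data that leaves a single injured library, assumed to vary like the controls. Under Bonferroni adjustment edgeR called 0 of the 8 genes, beside 0.226% of all genes higher, and DESeq2 called 4, beside 3.58%. At the unadjusted *p*-value of edgeR 6 were below 0.05, as were 30.5% of all genes in either direction. The median log2 fold change stayed between 0.75 and 0.95.

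Without injured replicates 1 and 3, the number of genes called higher was 4 in the sheath list, 2 among lipid enzymes and 3 in the oligodendrocyte lineage, and 1 axonal gene was called lower. Over all genes the calls fell in this setting from 2628 to 1448 higher and from 1087 to 290 lower. In edgeR with replicate number as a block, the lineage list had 9 genes called higher and the axonal list 8 called lower, where library size alone gave 0, with 5 below 0.05 at the unadjusted *p*-value of edgeR. DESeq2 called 5 axonal genes lower. With 1 library left out, these counts lay between 3 and 6 for the lineage and between 0 and 4 for axonal genes. Of all genes, 6.17% to 9.24% were then called higher and 1.33% to 4% lower. Over all genes, 70.7% of calls were higher, against 86.7% with library size alone, 61.2% with DESeq2 and 55.2% with the block, where 8141 genes were called instead of 3715. Among the 8 genes the block changed the call of *mbpa* only.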
